A study of Mus musculus musculus x M. m. domesticus and Mus musculus musculus x Mus musculus castaneus and Mus musculus domesticus with 42 samples.

Results

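The genes described here are the mouse zinc finger genes whose symbol is Zfp followed by a number from 300 to 999 and an optional letter. They were taken by symbol alone from the array's platform annotation, which gave 422 probe sets of 234 genes out of 45037 probe sets and 18193 named genes. Their symbols ran from Zfp316 to Zfp995. A single probe set stood for 117 of the genes, 2 for 75 and 3 or more for 42. The suffix that the array's design gives to probe sets able to bind several transcripts (_a_at, _s_at or _x_at) was carried by 52 of the 422.

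Zinc finger proteins of this kind mostly carry runs of C2H2 fingers, small folds held by a zinc ion that each read a few bases of DNA. Many also carry a KRAB domain, which recruits the corepressor Trim28 (KAP1) and, through it, the methyltransferase Setdb1 and heterochromatin proteins. KRAB zinc finger genes lie in clusters of near-identical copies that expand and are lost quickly in rodents, and several silence transposable elements or hold imprinted methylation. The number in a Zfp symbol is a label and not a measure of function, and the set also holds RNA-binding, ribosome and developmental regulators that have fingers but no KRAB domain.

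Brain, liver and testis were taken from 14 males, 2 of each of 7 genotypes, and each of the 42 samples was hybridised to an Affymetrix 430 2.0 array of its own. The parental genotypes were M. m. domesticus (aged 45 days), M. m. musculus (47 days) and M. m. castaneus (47 days). The F1 hybrids were of a musculus mother and domesticus father (53 days), a domesticus mother and musculus father (50 days), a musculus mother and castaneus father (53 days) and a castaneus mother and musculus father (54 days); they are written below with the mother first, as in musculus x domesticus. Every genotype was sampled at 1 age, so age and genotype cannot be told apart except between musculus and castaneus, and between the F1 of a musculus mother. No strain was named in the labels. The males of a genotype are described as biological replicates, and 2 per genotype is the limit on every error given here.

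Values are signals of the MAS5 algorithm, in arbitrary units scaled so that the trimmed mean of each array lay between 496.87 and 498.59. Tests used log2 of the signal plus 31, so that a fold understates the change of a dim probe set, and signals of different probe sets were not set against each other as levels of their genes. A probe set was called when limma's adjusted p was under 0.05. The tissues matched their labels in marker genes of neurons, hepatocytes and spermatids. The summed signal of 4 neuronal genes was 36133 to 46198 in brain and at most 2781 elsewhere, that of 4 hepatocyte genes was 89536 to 136557 in liver and at most 17458 elsewhere, and that of 5 spermatid genes was 60781 to 112776 in testis and at most 463 elsewhere. In liver the summed signal of 3 exocrine pancreas genes ranged from 895 to 38771 between arrays, and its part in the liver results was not tested. The 2 testis arrays of the musculus x castaneus F1 stood apart from the others on several marker lists, as described with the hybrids below.

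The zinc finger probe sets were brighter in brain than in the other tissues. Their median signal was 193 in brain, 126 in liver and 138.25 in testis, beside 155.5, 127 and 128 over all probe sets. After the dimmest 40% of all probe sets had been set aside in each tissue, 288 zinc finger probe sets of 195 genes were tested in brain, 267 of 184 genes in liver and 269 of 184 genes in testis. These made up 68.2%, 63.3% and 63.7% of the set, beside 60% of all probe sets. Few were bright: a median signal of 1000 or more was reached by 24 brain probe sets, 9 liver probe sets and 32 testis probe sets. Across the 3 tissues, 335 were tested at least once and 210 of 156 genes in every tissue, while 87 were tested in none, which left 20 genes without a tested probe set.

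Between tissues, most zinc finger probe sets differed, as did most probe sets on the array. In the fit over all 42 arrays, 226 of 267 (84.6%) differed between brain and liver, beside 84.8% of all probe sets, and 175 of them were higher in brain. Between testis and brain 225 of 267 (84.3%) differed, beside 86.9%, and 146 of them were higher in brain. Between testis and liver 217 of 267 (81.3%) differed, beside 87.1%, and 123 of them were higher in testis. A probe set was significantly highest in brain in 118 of 267 cases (44.2%, beside 32.1% of all probe sets), in testis in 68 (25.5%, beside 25.8%) and in liver in 31 (11.6%, beside 26.3%). In these whole tissues, fewer cells of a type and less RNA per cell cannot be told apart.

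The largest excesses of brain over liver were at Zfp365, Zfp521, Zfp423, Zfp462, Zfp536 and Zfp428, most of them genes with known parts in neural development. Zfp365, which encodes a DISC1-binding protein of neurons, read between 3564 and 5239 on all 14 brain arrays (1433583_at), between 15 and 136 in liver and between 1 and 58 in testis. No brain array came near any array of the other tissues, and the log2 difference was 5.76 ± 0.12 (SE) from liver (limma adjusted p = 1.36e-26) and the testis minus brain difference was -6.18. Its second probe set, 1435615_at, was also higher in brain than in liver, by 3.46 ± 0.17. Zfp521, a transcription factor of neural and blood progenitors, read 499 to 1641 in brain, 6 to 65 in liver and 54 to 175 in testis (1451332_at). Its second probe set, 1439909_at, was dimmer and overlapped between tissues, at 87 to 198 in brain, 24 to 157 in liver and 71 to 204 in testis. Zfp462, a gene of brain development, read 1237 to 1620 in brain, 35 to 96 in liver and 95 to 368 in testis (1456789_at), and the 2 highest testis values, 303 and 368, were those of the musculus x castaneus F1. Zfp423, needed for cerebellar development and for the adipocyte lineage, was shared between brain (362 to 688) and testis (231 to 442) but read only 3 to 7 in liver. Zfp536, a repressor of neuronal differentiation genes, exceeded liver by 3.58 ± 0.13 on 1456093_at and Zfp428 by 3.45 ± 0.15. The other probe set of Zfp536, 1458287_at, was dim and had no brain excess, at 32 to 133 in brain and 68 to 235 in liver. Of the 14 tested probe sets of 11 genes listed for neural development and disease, 13 were higher in brain than in liver and none was lower. Over all probe sets 12600 of 27022 were called higher in brain. The median difference of the neural list, which was drawn up with earlier results of these data known, was 2.72, beside 0.10 over all probe sets tested. Against testis the 6 largest brain excesses were again led by Zfp365 and held Zfp521 and Zfp462, but also Zfp931, Zfp871 and Zfp799, which are not on the neural list, with testis minus brain differences of -3.74, -3.02 and -2.84.

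The genes highest in testis included known germ-cell genes. Zfp541, a chromatin regulator of meiotic spermatocytes, read 1630 to 3097 in testis, 9 to 63 in brain and 7 to 59 in liver. The testis arrays lay far above the others, by 5.53 ± 0.12 on the log2 scale over brain (limma adjusted p = 9.66e-27). Zfp474, a testis-specific zinc finger gene, read 1330 to 2985 in testis, 19 to 113 in brain and 10 to 145 in liver. Zfp318, the testicular zinc finger gene that also controls IgD splicing in B cells, read 2704 to 5109 in testis, 336 to 653 in brain and 220 to 460 in liver on 1421479_at. Its other 4 probe sets were all higher in testis than in brain, by 0.65 to 2.60. Zfp597 read 692 to 2094 in testis, 42 to 118 in brain and 40 to 139 in liver on 1430184_at, whereas 1460589_at read 213 to 605 in testis and 274 to 669 in brain, and 1435556_at 495 to 991 and 410 to 846, so the probe sets of this gene did not move together. All 7 probe sets of the 3 tested germ-line genes, Zfp318, Zfp474 and Zfp541, were higher in testis than in brain, and most of these were of Zfp318. Their median was 2.60, beside -0.25 over all probe sets, of which 9574 of 27022 were called higher in testis. This list too was drawn up with earlier results of these data known. Off the list, the 6 largest testis excesses over brain also held Zfp597, Zfp991 (3.11) and Zfp574 (2.38). Those over liver also held Zfp597, Zfp821 (4.30) and Zfp711 (4.12).

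**Figure D1:**
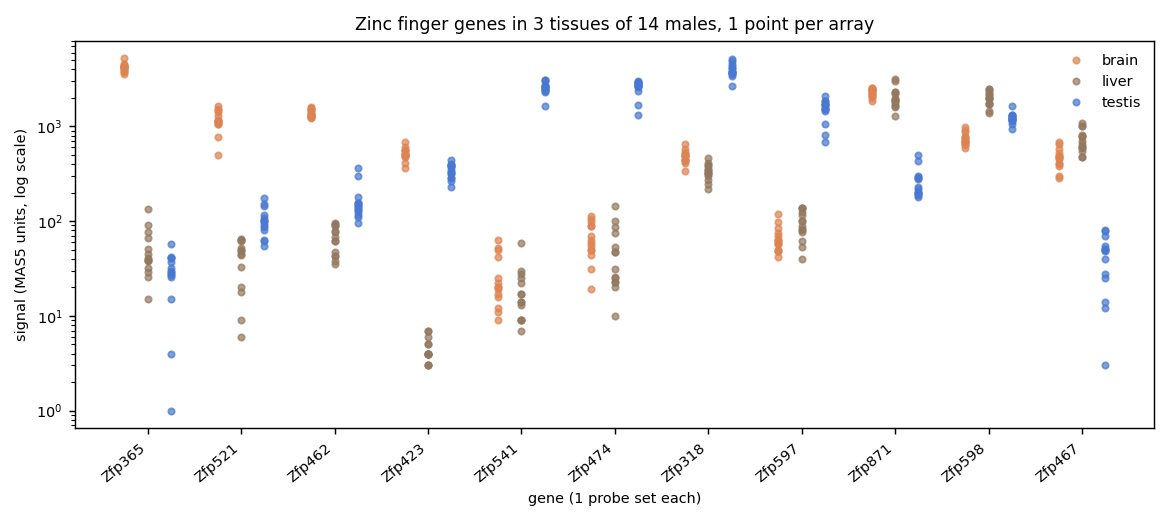
Signal on each of the 42 arrays (log axis, MAS5 units) for 11 zinc finger genes, 1 probe set each, with 14 points per tissue. Zfp365, Zfp521 and Zfp462 are brightest in brain, Zfp541, Zfp474, Zfp318 and Zfp597 in testis, Zfp871 and Zfp467 are low in testis, and Zfp423 is low in liver.

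Fewer probe sets were highest in liver, while 146 were lower in testis than in brain and 94 lower than in liver. Zfp871 read 1845 to 2548 in brain, 1295 to 3141 in liver and 179 to 496 in testis (1433784_at), a testis minus brain difference of -3.02 ± 0.08 in the limma fit. Zfp467, a regulator of adipocyte and osteoblast fate, read 473 to 1099 in liver, 289 to 680 in brain and 3 to 81 in testis (1441727_s_at). Zfp598, the ubiquitin ligase that marks collided ribosomes, was highest in liver, at 1381 to 2471, beside 599 to 981 in brain. In testis Zfp598 read 950 to 1639, in part within the liver range. Its brain minus liver difference was -1.37 ± 0.05. Zfp568, a KRAB gene that represses a placental Igf2 transcript, read 451 to 975 in liver, 168 to 313 in brain and 170 to 404 in testis. Of the RNA, translation and ribosome genes, 14 of 17 probe sets differed between brain and liver, beside 84.8% of all probe sets. Of these 14, 9 were higher and 5 lower in brain.

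Divergence between the parental subspecies was about as common among the zinc finger probe sets as among others. In brain, 17 of 288 (5.9%) differed between domesticus and musculus, 9 higher and 8 lower in domesticus, beside 5.75% of all probe sets. Castaneus and musculus differed at 17 of 288 (5.9%, beside 6.07%), 8 higher and 9 lower in castaneus. Castaneus and domesticus differed at 26 of 288 (9.03%, beside 5.77%), 12 higher and 14 lower in castaneus. Liver had 13 of 267 (4.87%, beside 6.17%) for domesticus and musculus, 14 (5.24%, beside 6.55%) for castaneus and musculus, and 13 (4.87%, beside 6.12%) for castaneus and domesticus. Testis had 30 of 269 (11.2%, beside 12.8%), 38 (14.1%, beside 13.5%) and 38 (14.1%, beside 12.4%) for the same pairs. The 3 comparisons of a tissue share their parental arrays and are not independent of each other. In all 9 comparisons together 105 probe sets of 86 zinc finger genes were called at least once, which was 31.3% of those tested, beside 29.3% of all probe sets.

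Setting the zinc finger probe sets against other probe sets of like signal, in 4 equal bins of the tested signal in the tissue, gave differences of at most 3.07 percentage points. The zinc finger share minus the share expected from the others was -0.14, -0.58 and 3.07 percentage points in brain for domesticus against musculus, castaneus against musculus and castaneus against domesticus. It was -0.20, -0.21 and -0.21 points in liver, and -1.5, 1.01 and 1.98 points in testis. With 1 probe set per gene the values, in the same order, were 1.18, 2.08 and 3.82 in brain, -0.48, -0.19 and -1.96 in liver, and -2.07, 0.44 and 1.99 in testis. The brain comparison of castaneus with domesticus stood out most, and there the dimmest bin had 11 of 78 zinc finger probe sets called (14.1%) and 5.11% of the others. Whether a share differed from that of the others was not tested. Of the 190 probe sets of Zfp1 to Zfp299, 146 were tested in brain and 115 in each of liver and testis, and of those tested 3.42% to 4.79% in brain, 0.87% to 6.09% in liver and 13.9% to 15.7% in testis were called.

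Leaving out 1 parental array left its genotype with a lone sample, assumed to vary like the other groups, and lowered most counts together with the share called over all probe sets, which is given after each. In brain, the count for domesticus and musculus was 8 without domesticus male 1, musculus male 1 or musculus male 2 (beside 3.16%, 2.59% and 2.62% of all probe sets). For castaneus and musculus it was 10 without musculus male 1, 8 without musculus male 2, 10 without castaneus male 1 and 9 without castaneus male 2 (beside 2.68%, 2.7%, 4.01% and 2.93%). The count of 26 for castaneus and domesticus became 16 without either domesticus male, 12 without castaneus male 1 and 13 without castaneus male 2 (beside 2.84%, 2.51%, 3.38% and 2.39%, where all arrays gave 5.77%). In liver, castaneus and musculus had 8 without musculus male 1, 7 without castaneus male 1 and 6 without castaneus male 2 (beside 2.76%, 4.06% and 4.3%). Castaneus and domesticus had 6 without domesticus male 1, 8 without domesticus male 2 and 7 without either castaneus male (beside 3.61% to 4.37%). In testis, domesticus and musculus had 10 without domesticus male 1, 18 without domesticus male 2 or musculus male 1, and 16 without musculus male 2 (beside 7.55% to 8.38%). Castaneus and musculus had 25 in testis without musculus male 2 and 24 without castaneus male 1 (beside 8.72% and 8.48%). Castaneus and domesticus had 20 without domesticus male 1 or castaneus male 2, 18 without domesticus male 2 and 17 without castaneus male 1 (beside 6.72% to 7.5%). The liver counts for castaneus became 8 against musculus and 6 against domesticus when probe sets with the suffix _a_at, _s_at or _x_at were left out.

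Split by symbol number, the genes numbered 800 to 999 had the highest share of calls in 8 of the 9 parental comparisons. This split was made after the values were seen and is a description. Over the 9 parental comparisons, genes numbered 800 to 999 gave 93 calls in 606 tests (15.3%, and 7.25% to 26.3% in single comparisons). Genes numbered 300 to 599 gave 59 in 1032 (5.72%, from 0% to 12.5%) and those numbered 600 to 799 gave 54 in 834 (6.47%, from 3.16% to 13%). The exception was liver for castaneus and musculus, where 7 of 91 (7.69%) numbered 600 to 799 and 5 of 69 (7.25%) numbered 800 to 999 were called. Over all probe sets the shares called were 5.75% to 6.07% in brain, 6.12% to 6.55% in liver and 12.4% to 13.5% in testis. In brain for castaneus and musculus, 1 of 31 numbered 800 to 899 was called (3.23%), beside 8 of 45 numbered 900 to 999 (17.8%). The share was larger for 800 to 899 only in brain for domesticus and musculus and in liver for either subspecies against musculus. In brain for domesticus and musculus, 11 of the 76 probe sets numbered 800 to 999 were called, beside 2 of 117 numbered 300 to 599. The median signal of these bands was 257.79 and 340.03 in that fit, so the band with more calls was the dimmer of the pair. In testis for the same pair the shares were 26.3% and 7.5%, with 15 of 57 and 9 of 120 called. Comparisons that share arrays repeat calls, so these totals count some differences more than once.

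**Figure D2:**
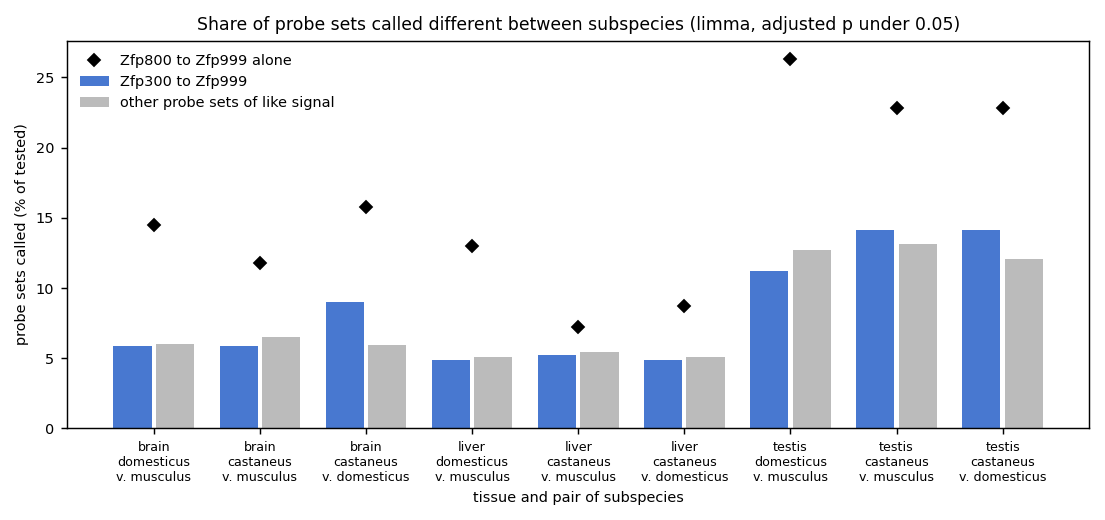
Percentage of tested probe sets called different between parental subspecies (limma, adjusted p under 0.05) in each tissue and pair, for the zinc finger set (blue bars), for other probe sets weighted to like signal (grey bars) and for Zfp800 to Zfp999 alone (diamonds). Blue and grey bars lie close together except in brain for castaneus and domesticus (9.03% and 5.96%), and the diamonds lie above both bars in all 9 comparisons.

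Zfp874a had the largest called difference of domesticus from each other subspecies in brain. In liver it had the largest from castaneus, while from musculus it was matched by Zfp825, which is described further on. Its single probe set (1434171_at) read 7 and 43 in the brain of the domesticus males, 575 and 508 in musculus and 523 and 510 in castaneus. The F1 of musculus and domesticus were intermediate, at 293 and 224 with a musculus mother and 255 and 219 with a domesticus mother, and those of musculus and castaneus read 463 to 571. In liver domesticus read 121 and 175 where musculus read 1127 and 1194, castaneus 1196 and 1160 and the domesticus-cross F1 533 to 716. Testis signals were lower, with 7 and 40 in domesticus, 75 and 156 in musculus and 134 and 104 in castaneus. No domesticus array overlapped the other parents in any tissue. The log2 difference of domesticus from musculus was -3.43 ± 0.27 in brain (limma adjusted p = 1.6e-05), -2.75 ± 0.21 in liver (5.76e-06) and -1.44 ± 0.41 in testis (0.0331). The testis call was lost with an offset of 100 (0.0509), without the filter on low signal (0.0582), without domesticus male 1 (0.258) and without musculus male 2 (0.256).

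Zfp955a went the other way, with musculus below both other subspecies in all 3 tissues. In testis 1434896_at read 228 and 320 in musculus, 1195 and 1203 in domesticus and 935 and 990 in castaneus, and all 8 F1 arrays lay between, at 627 to 873. In liver it read 198 and 195 in musculus, 829 and 845 in domesticus, 712 and 716 in castaneus and 360 to 620 in the F1. The brain gap was narrower, with 973 and 962 in musculus, 1396 and 1602 in domesticus and 1334 and 1474 in castaneus. The domesticus minus musculus difference was 0.61 ± 0.13 (brain), 1.93 ± 0.19 (liver) and 2.03 ± 0.18 (testis), and it depended on tissue (limma adjusted p = 6.33e-06). The brain call was lost without domesticus male 2 (0.141), musculus male 1 (0.105) or musculus male 2 (0.116). The other probe set of Zfp955a, 1441348_at, was dim, with 7 to 196 over all 42 arrays.

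**Figure D3:**
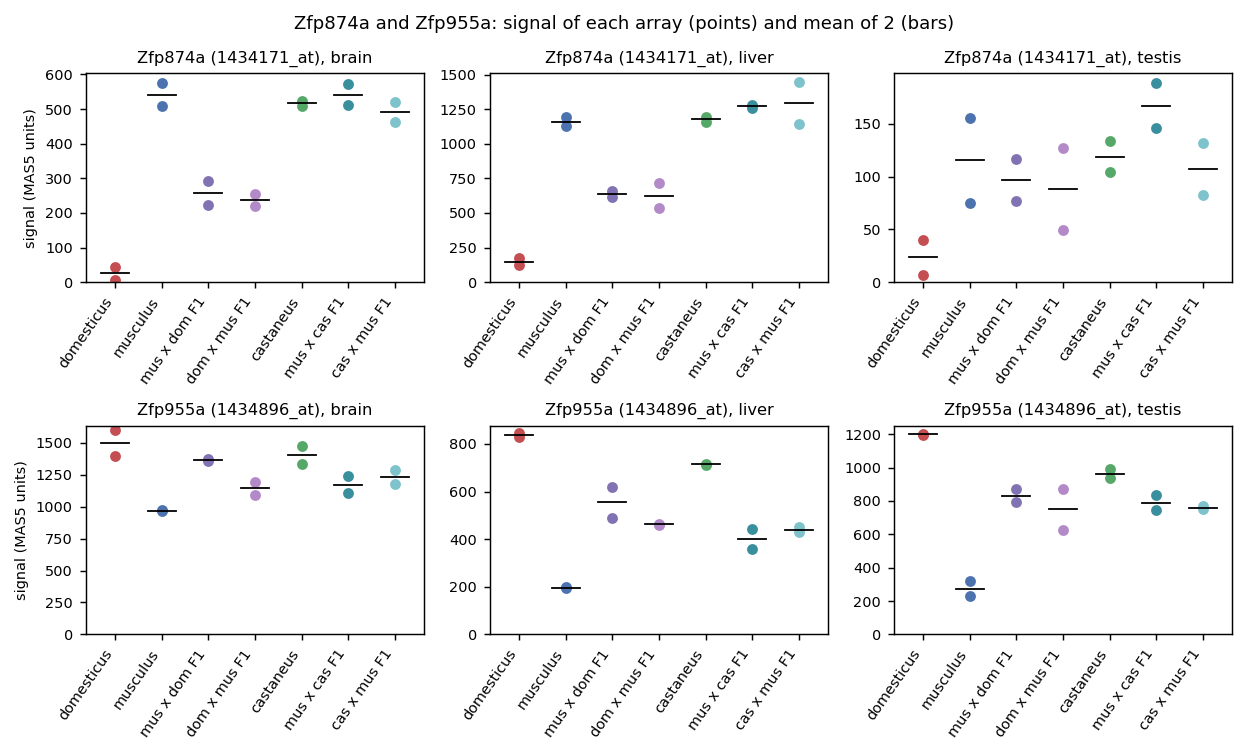
Signal of Zfp874a (upper row) and Zfp955a (lower row) on each array in brain, liver and testis, by genotype; points are arrays, bars the mean of 2. Domesticus is lowest for Zfp874a and musculus lowest for Zfp955a in each tissue, and the group means of the F1 whose parents differ lie between the parental means.

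Castaneus differed from both other subspecies in all 3 tissues at Zfp617 and Zfp329, and from domesticus in all 3 at Zfp386. Zfp617 read 515 and 631 in castaneus brain on 1449546_a_at, 1865 and 1519 in musculus and 1240 and 1151 in domesticus. In testis it read 173 and 127 in castaneus beside 466 to 606 in the other parents and in the F1 of musculus and domesticus. Castaneus minus musculus gave -1.51 ± 0.16 for brain, -1.71 ± 0.25 for liver and -1.66 ± 0.18 for testis (limma adjusted p = 0.000178, 0.00104 and 3.05e-05). A second probe set, 1434355_at, read 610 and 682 in castaneus brain beside 894 and 746 in musculus and was not called. Zfp329 was low in castaneus on 1422094_a_at, at 207 and 62 in brain beside 647 and 489 in musculus and 783 and 801 in domesticus, and at 9 and 12 in liver beside 108 to 237. Its probe set 1431830_at read 555 and 573 in castaneus brain beside 558 to 680 in the other parents, with no difference called, and 1453792_at was too dim to test. Zfp386 was high in castaneus on 1451146_at, at 528 and 506 in testis beside 207 and 188 in domesticus and 140 and 155 in musculus. It exceeded domesticus by 0.76 ± 0.17 (brain), 1.03 ± 0.25 (liver) and 1.26 ± 0.17 (testis). The liver call was lost without any 1 of the 4 arrays compared (limma adjusted p = 0.0808 to 0.148), and the brain call without domesticus male 2, castaneus male 1 or castaneus male 2 (0.182, 0.0683 and 0.143). Its other probe set, 1421139_a_at, read 379 and 234 in castaneus testis beside 79 to 153.

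These were the members called with 1 sign in all 3 tissues. For domesticus against musculus they were 2 of 210, Zfp874a and Zfp955a (0.952%, beside 1.13% of all probe sets tested in the 3 tissues). Castaneus against musculus gave 3, Zfp329, Zfp617 and Zfp955a (1.43%, beside 1.2%). Castaneus against domesticus gave 4, Zfp329, Zfp386, Zfp617 and Zfp874a (1.9%, beside 1.12%). Most of these rest on at least 1 call that leaving out a single array ended. Zfp617 kept these parental calls under every alternative run that tested its probe set, which carries the suffix _a_at. Beside the losses of Zfp874a against musculus, of Zfp955a in domesticus and of Zfp386 given above, Zfp955a lost its brain call for castaneus against musculus without any 1 of the 4 arrays compared (limma adjusted p = 0.0795 to 0.237). Zfp329 lost its call against musculus without musculus male 1 in brain (0.0708) and in liver (0.0577), and against domesticus in testis without domesticus male 1, domesticus male 2 or castaneus male 2 (0.125, 0.0517 and 0.193). Zfp874a lost its testis call for castaneus against domesticus without domesticus male 1, castaneus male 1 or castaneus male 2 (0.222, 0.144 and 0.08).

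Several other genes were low in the brain of 1 or 2 subspecies. Zfp937 read 12 and 7 in domesticus, 337 and 363 in musculus and 238 and 273 in castaneus, with 209 to 266 in the F1 of musculus and domesticus. Domesticus minus musculus was -3.24 ± 0.19 in brain and -1.75 ± 0.36 in liver, where domesticus read 28 and 16 beside 103 and 202. The liver call was lost without domesticus male 2 (limma adjusted p = 0.079) or musculus male 2 (0.114). Zfp820 was bright in musculus alone, at 303 and 252 beside 38 and 25 in domesticus and 42 and 42 in castaneus (1455786_at). The F1 read 150 to 285, above both low parents and in part within the musculus range, and the second probe set, 1425775_at, stayed at 84 or below in brain. Zfp811 read 55 and 52 in domesticus, 183 and 197 in musculus and 222 and 295 in castaneus on 1443930_at, and 1436592_at read 115 to 283 in the same arrays. Zfp575 was low in castaneus only, at 21 and 26 beside 224 to 350, and 1 of the castaneus x musculus males read 45 where the other read 276. Its call against domesticus was lost without any 1 of the 4 arrays compared (limma adjusted p = 0.0802 to 0.101), and that against musculus without musculus male 2, castaneus male 1 or castaneus male 2 (0.0898, 0.0542 and 0.0533). Zfp607b was low in musculus, at 100 and 140 beside 357 and 362 in domesticus and 426 and 469 in castaneus.

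Zfp931 was graded across the subspecies in brain and liver. On 1427349_x_at it read 3436 and 2942 in musculus brain, 1769 and 1711 in domesticus and 536 and 482 in castaneus, and none of the 3 groups overlapped, although the step from musculus to domesticus was not called (adjusted p = 0.0798). Liver gave the same order, with 668 and 1010, 182 and 213, and 126 and 74. Testis was low throughout, at 23 to 215. Castaneus minus musculus was -2.57 ± 0.25 in brain and -2.73 ± 0.28 in liver by limma (adjusted p = 0.000105 and 7.79e-05). The suffix of this probe set marks sequence shared with other transcripts, so that the level cannot be assigned to Zfp931 alone.

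The probe sets of Zfp945 disagreed in direction. On 1437128_a_at domesticus brain read 481 and 302, musculus 39 and 55 and castaneus 9 and 38. On 1437127_at castaneus was highest, at 381 and 489, beside 52 and 62 in musculus and 230 and 101 in domesticus. The first gave a castaneus minus domesticus difference of -2.97 ± 0.43 and the other gave 1.32, both called by limma. In liver 1441792_at read 224 and 212 in castaneus beside 60 to 74 in the other parents, while 1437128_a_at read 32 and 33 beside 491 and 220 in domesticus. No single direction can therefore be given for the gene.

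Liver added Zfp825, for which both bright probe sets moved together. Zfp825 read 605 and 533 in domesticus, 73 and 43 in musculus and 298 and 440 in castaneus on 1451654_x_at. On 1425297_at it read 724 and 536, 155 and 64, and 325 and 323. Domesticus minus musculus was 2.77 ± 0.28 and 2.30 on the respective probe sets. The third, 1442954_at, read 78 to 138 in the parents and was not called. Zfp622, a factor of ribosome maturation, was low in castaneus liver on 1447775_x_at, at 332 and 238 beside 878 to 958. It was called on 1 of the 3 probe sets of the gene tested in liver: 1438000_x_at read 3404 and 4176 in castaneus beside 2927 to 4040. Zfp790 was high in domesticus liver, at 260 and 278 beside 61 to 111 in the other parents (1426293_at), and 1426292_at read 417 to 628 in the same arrays with no call. The call against musculus was lost without domesticus male 2 (limma adjusted p = 0.0504). Zfp949 read 37 and 13 in domesticus liver on 1458491_at beside 646 and 143 in musculus, so the musculus arrays were far apart, and the call was lost without domesticus male 2 (0.0914) or musculus male 1 (0.14).

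Testis held the largest single difference of the set. Zfp558 read 47 and 36 in castaneus on 1430973_at, 1140 and 789 in musculus and 1126 and 1027 in domesticus. The log2 difference of castaneus was -3.76 ± 0.19 from musculus (limma adjusted p = 3.36e-08) and -3.94 ± 0.19 from domesticus (2.08e-08). The F1 of musculus and domesticus read 781 to 1192, like their parents. A second probe set of Zfp558, 1453912_at, read 266 and 204 in castaneus beside 383 and 337 in musculus and 223 and 238 in domesticus, and was not called (adjusted p = 0.2 against musculus). In brain and liver both probe sets were below the limit for testing, with at most 64.

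Other testis differences were as clear on 1 probe set. Zfp704, a zinc finger transcription factor, read 22 and 61 in castaneus, 599 and 632 in musculus and 312 and 425 in domesticus on 1417849_at. The probe set 1417848_at of the same gene read 92 to 170 in the testis of the parents, with no difference called there, and was higher in musculus liver, at 361 and 341 beside 101 to 163. Zfp979 read 21 and 20 in castaneus beside 369 and 256 in musculus and 206 and 164 in domesticus. Zfp572 was at 12 and 15 in domesticus, 364 and 240 in musculus and 220 and 188 in castaneus on 1454555_at, while 1433309_at stayed at 19 or below in all samples. Zfp935 was at 63 and 73 in domesticus, 800 and 595 in musculus and 773 and 474 in castaneus, with the F1 of musculus and domesticus at 302 to 412 (1430074_x_at). Zfp995 was lowest in musculus on both probe sets, at 136 and 231 on 1455648_at beside 485 to 705, and at 95 and 81 on 1436330_x_at beside 212 to 474. Zfp511 was highest in castaneus on 1460572_a_at, at 1019 and 802 beside 131 to 432, and its other 2 probe sets were also called higher in castaneus than in musculus, by 0.59 and 1.34.

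Zfp354b, a KRAB gene, reversed between tissues. In testis 1421379_at read 67 and 53 in musculus, 244 and 220 in domesticus and 464 and 424 in castaneus, with no overlap between any pair of the 3. In brain it read 247 and 240 in musculus, 187 and 153 in domesticus and 110 and 86 in castaneus, the opposite order. In liver its mean signal was 235 ± 90.5 in musculus, 143.5 ± 7.78 in domesticus and 121.5 ± 46.0 in castaneus (SD, n = 2 each). Castaneus minus musculus was 2.39 ± 0.20 in testis (limma adjusted p = 3.68e-06), -1.10 in brain, where it was also called, and -0.79 in liver, where it was not. The dependence on tissue had an adjusted p of 8.19e-10. Its neighbours in name gave fewer calls: Zfp354c was higher in domesticus than in musculus brain by 1.22 and Zfp354a higher in castaneus than in domesticus liver by 1.02.

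**Figure D4:**
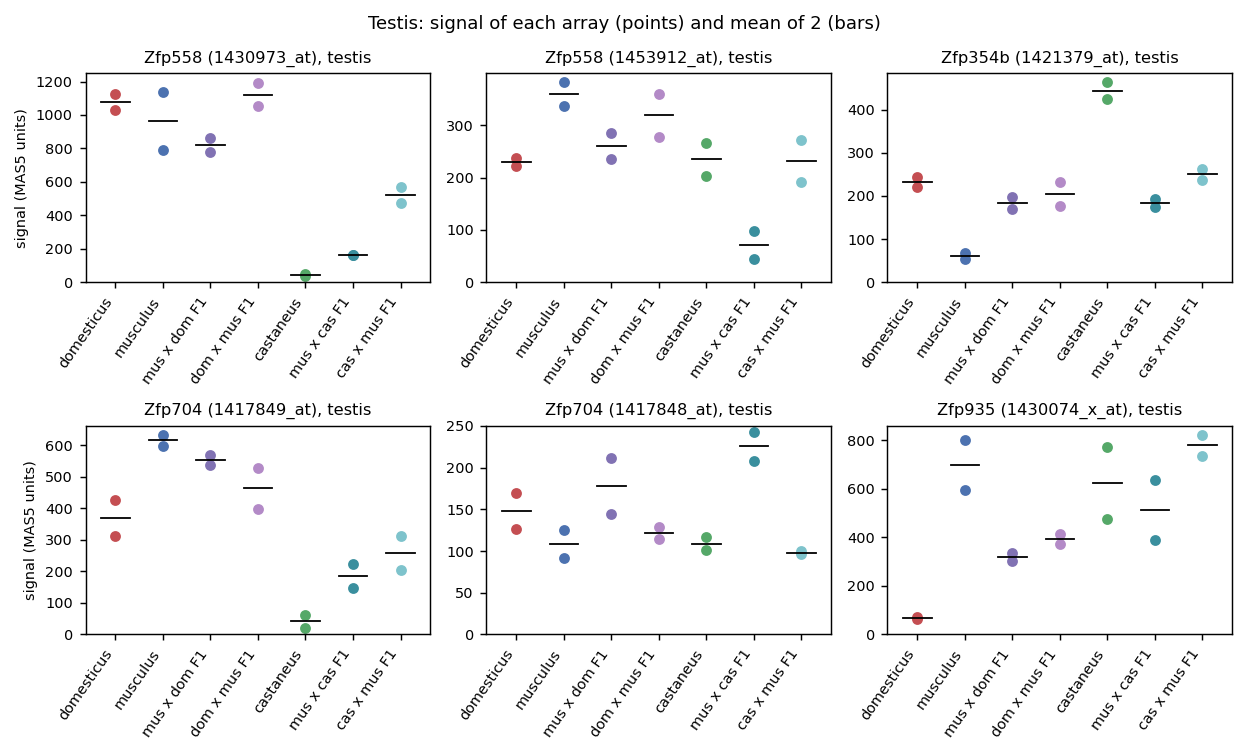
Testis signal on each array by genotype for 2 probe sets of Zfp558, Zfp354b, 2 probe sets of Zfp704, and Zfp935; points are arrays, bars the mean of 2. Castaneus is lowest on the first probe sets of Zfp558 and Zfp704 but not on their second ones, musculus is lowest for Zfp354b and domesticus for Zfp935.

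Agreement between probe sets of a gene was limited throughout. Among genes called in a parental comparison that had several tested probe sets, between 5 and 19 per comparison, another probe set was called with the same sign for at most 4 and with the opposite sign for at most 1. In testis, for castaneus and domesticus, 36 genes were called, 19 had another tested probe set, and for 17 of these no other was called. The median absolute difference was 0.98 on the called probe sets and 0.44 on the others of those genes. A called probe set was chosen for its difference, so a smaller value on the others carries no test. Sequence differences between the subspecies under the probes were not examined, and their part in these differences was not tested.

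The dependence of the parental difference on tissue was called at 22 of 210 zinc finger probe sets for domesticus and musculus (10.5%, beside 12.4%) and at 27 for castaneus and musculus (12.9%, beside 13.8%). These fits kept the animal as a block over its 3 tissues, and without the block the counts were 13 and 12. The first count was 12 without domesticus male 1 and 11 without musculus male 1. The other was 13 without musculus male 1, 17 without castaneus male 1 and 16 without castaneus male 2.

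Among genes with a known part in silencing retroelements or imprinted loci, differences between subspecies were called at Zfp809, Zfp932 and Zfp819. Zfp809, which silences retroviruses through their primer binding site, was lower in domesticus than in musculus in liver (-0.87) and testis (-1.36), and lower in castaneus than in musculus testis (-0.86). Zfp932, a KRAB gene that binds endogenous retroviruses, was higher in domesticus than in musculus testis, by 1.03, and higher in castaneus by 0.77. Zfp819, described with the hybrids, gave a castaneus minus domesticus difference of -0.95 in testis. For Zfp445, which maintains imprinted methylation, no parental difference was called. In all, 0 of 6 tested probe sets of this list were called in brain for any pair, at most 1 of 7 in liver and at most 2 of 8 in testis. Over all probe sets the shares were 5.75% to 6.07% in brain, 6.12% to 6.55% in liver and 12.4% to 13.5% in testis. Of the RNA and ribosome genes none was called in brain (0 of 16), and in liver and testis at most 1 was called per comparison. The 13 of 14 neural probe sets that separated brain from liver included Zfp536, which was also higher in castaneus than in domesticus brain, by 0.84. It was the only neural probe set called between subspecies in brain, of 17 tested. The corepressors that KRAB domains recruit, none of them members, had at most 1 of 45 probe sets called in brain, 2 of 41 in liver and 3 of 44 in testis for any pair of subspecies, beside the same shares of all probe sets.

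In the F1 hybrids, most zinc finger probe sets that differed between the parents were not called different from the midparent, the mean of the parental log2 values. In brain, 3 of 17 departed from it in the domesticus cross (beside 8.76% of all probe sets tested) and 2 of 17 in the castaneus cross (beside 8.9%). In liver it was 2 of 13 (beside 8.21%) and 2 of 14 (beside 11.9%), and in testis 2 of 30 (beside 6.59%) and 7 of 38 (beside 34.7%). All of these lay above the midparent, as did most of those called over all probe sets, which were 133 of 136 and 135 of 146 in brain, 122 of 137 and 184 of 211 in liver, and 221 of 228 and 829 of 1265 in testis, domesticus cross first. The largest were Zfp937 in brain, 1.08 ± 0.13 above it in the domesticus cross (limma adjusted p = 0.000412), and Zfp825 in liver, 1.20 ± 0.20 above it in the castaneus cross (0.00182). With the mean of the untransformed parental signals as midparent, none remained called in brain in either cross, nor in the domesticus cross in liver or testis. Zfp874a changed sign under that midparent, from 0.67 to -0.18 in brain and from 0.52 to -0.056 in liver.

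These counts were small and changed when single arrays were left out. In the same fits the share called over all probe sets moved as well, and in many of them the number tested did too. The changes are therefore not read as a trait of the zinc finger set. For the domesticus cross in brain the count was 1 without musculus male 2, either musculus x domesticus male or domesticus x musculus male 1, and for the castaneus cross in brain it was 1 without musculus x castaneus male 1. The domesticus cross in liver gave 4 without musculus male 2, 0 without musculus x domesticus male 1 or domesticus x musculus male 1, and 1 without any other male of that cross or its parents. The castaneus cross in liver gave 4 without musculus male 2 and 1 without castaneus male 2. In testis, the domesticus cross gave 0 without either domesticus male, musculus x domesticus male 2 or domesticus x musculus male 1, and 1 without musculus x domesticus male 1. The castaneus cross in testis gave 4 without musculus male 2, 3 without castaneus male 1 and 4 without castaneus male 2.

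No zinc finger probe set lay outside both parents in brain, liver or the domesticus cross in testis. The counts over all probe sets were also near 0: 0% in both crosses in brain and in the domesticus cross in liver and testis, and 0.00396% in the castaneus cross in liver. At an unadjusted limma p under 0.05 the zinc finger counts were 0 and 1 in brain, 0 and 2 in liver and 0 in testis. Between reciprocal F1, no zinc finger probe set was called in brain (beside 0.0222% of all in the domesticus cross and 0.0111% in the castaneus cross), in liver (0.0888% and 0.037%) or in the domesticus cross in testis (0.204%). At an unadjusted p under 0.05 these counts were 5 and 8 of 288 in brain, 13 and 3 of 267 in liver and 9 of 269 in testis. Every alternative processing gave 0 in these comparisons as well, except that 1 was called between the castaneus-cross F1 in brain without musculus x castaneus male 1.

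The castaneus cross in testis was the exception, and its 2 arrays of the musculus x castaneus F1 stood apart on several marker lists. The summed signal of 5 spermatogonial genes was 4868 and 5191 on these arrays, beside 3385 and 3032 for the reciprocal cross. For 3 Leydig cell genes the sums were 12529 and 13160 beside 6174 and 4643, and for 4 Sertoli cell genes 16686 and 16575 beside 12590 and 11413. The 5 spermatid genes summed to 68144 and 60781 beside 73546 and 68390. On the spermatogonial, Leydig and Sertoli lists both arrays lay above every other testis array, and on the spermatid list below. On 4 spermatocyte genes these arrays gave 24064 and 23358, within the 17709 to 25199 of all testis arrays. A list of 2 microglial genes summed to 4854 and 4433 on them and to 8672 to 12059 on the others. The spermatogonial list was brighter in brain than in testis and the Sertoli list brighter in liver, so neither is specific to testis cells. The part of these marker shifts in the following results was not tested.

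Between the reciprocal F1 of castaneus and musculus, 51 of 269 zinc finger probe sets of 44 genes differed in testis (19%, beside 28.4% of all probe sets). In the F1 with a musculus mother 32 were higher and 19 lower, and for all 51 the arrays of the F1 did not overlap, which held for 7686 of the 7687 called over all probe sets. The median difference over the tested zinc finger probe sets was 0.20, beside 0.24 over all. On 30 of the 51 (58.8%, beside 55.3% of all those called) both musculus x castaneus arrays were higher than every array of both parents and of the other F1, and on 15 (29.4%, beside 31.3%) both were lower. The count was 21 without musculus x castaneus male 2 (beside 13.6% of all probe sets) and 18 without castaneus x musculus male 1 (beside 12.8%).

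The largest negative differences were at Zfp526 and Zfp819. Zfp819, a KRAB gene of spermatogenic cells, read 33 and 18 in the musculus x castaneus F1, where the reciprocal castaneus x musculus F1 had 248 and 157, with 301 and 215 in musculus and 171 and 159 in castaneus. The F1 difference, musculus mother minus castaneus mother, was -2.03 ± 0.25 on the log2 scale (limma adjusted p = 0.000175). Zfp526 read 14 and 10 beside 170 and 155, although castaneus itself was spread, at 63 and 235 (1443585_at). Zfp949 read 183 and 162 in the musculus x castaneus F1 on 1456518_at, 541 and 480 in the other F1 and 379 to 642 in the parents. Zfp474, the testis-specific gene, read 1686 and 1330 beside 2673 and 2927, and Zfp597 read 817 and 692 beside 1072 and 1524. Zfp558 was lower in the musculus x castaneus F1 on both probe sets, at 160 and 163 beside 568 and 475 on 1430973_at and at 97 and 44 beside 192 and 272 on 1453912_at. The first lay between the parents in both F1, and the other lay below both parents in the F1 with a musculus mother.

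By list, 3 of 12 neural probe sets were called between these F1, all higher in the musculus x castaneus F1, and 2 of 17 of the RNA, translation and ribosome list, Zfp326 higher and Zfp830 lower, beside 28.4% of all probe sets. Some of those higher are given next. Zfp711, an X-linked gene of brain development, read 1499 and 1755 beside 827 and 1022 in the other F1, 846 and 758 in musculus and 943 and 905 in castaneus. Zfp462 read 303 and 368 beside 115 and 178 on 1456789_at and 268 and 236 beside 78 and 149 on 1439106_at. Zfp326, an RNA-processing factor, read 1345 and 1639 beside 700 and 783. Zfp451, a SUMO ligase, was higher on both probe sets called, at 572 and 688 beside 249 and 258 on 1455943_at. Zfp932 read 253 and 270 beside 100 and 92, and Zfp568 345 and 404 beside 171 and 179. Of the imprinting and retroelement list, 3 of 8 probe sets were thus called in this comparison, 2 higher and 1 lower. The KRAB corepressor machinery had 10 of 44 called, 8 higher and 2 lower.

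The F1 of castaneus and musculus lay outside both parents in testis at 1 of 231 zinc finger probe sets (0.433%, beside 1.52% of all). Zfp839 read 1183 and 1195 in the musculus x castaneus F1, where the reciprocal castaneus x musculus F1 had 714 and 869, with 542 and 640 in musculus and 529 and 534 in castaneus. Without the musculus x castaneus arrays none was called, and 2 instead of 7 departed from the midparent. Without the castaneus x musculus arrays 28 lay outside both parents, 18 higher and 10 lower, and 11 departed from the midparent. Shares over all probe sets are not given for these fits, and 28.4% of all probe sets differed between these F1. The counts are therefore not read as a trait of the zinc finger set. The count of 1 outside both parents became 0 without either musculus male, either castaneus male, musculus x castaneus male 2 or castaneus x musculus male 2, and 4 without musculus x castaneus male 1. Where 1 male was left out, the share over all probe sets moved the same way as this count. Parental counts in testis stayed at 29, 35 and 37 when the musculus x castaneus arrays were left out of the fit.

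**Figure D5:**
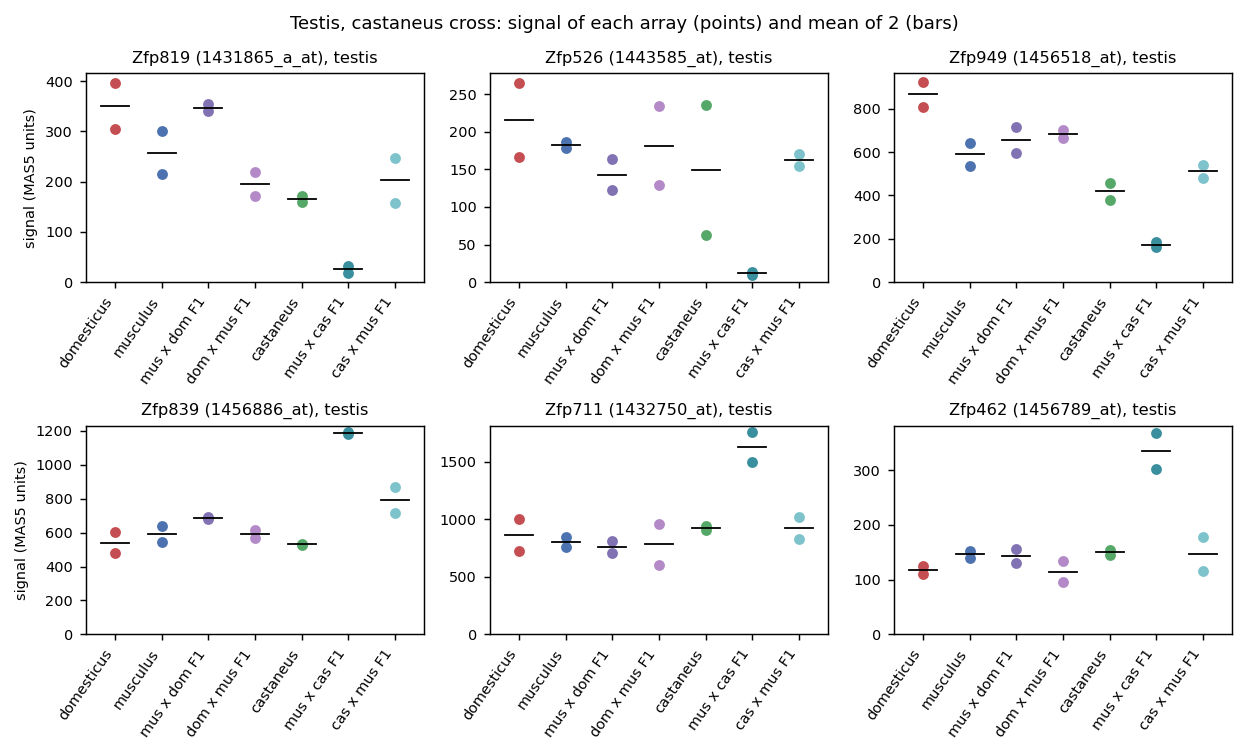
Testis signal on each array by genotype for Zfp819, Zfp526, Zfp949, Zfp839, Zfp711 and Zfp462; points are arrays, bars the mean of 2. The musculus x castaneus F1 is the lowest group for the first 3 genes and the highest for the other 3, while the castaneus x musculus F1 lies nearer the parents.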

How the data were processed

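Intensities are the signals the authors deposited in their series matrix, which the submitters' processing notes credit to MAS5, from cRNA of 1 ug total RNA per the labels' protocols. Probe sets were named from the platform annotation: 34945 had 1 symbol, 932 several and 9160 none. Members and gene lists were chosen with earlier results of these data known. From the signals, log2(signal + 31) was computed, 31 being the 20th percentile of all values. limma 3.58.1 (R 4.3.3, statmod 1.5.0) was fitted per tissue to 14 arrays with genotype as factor, with Benjamini-Hochberg adjustment over the 27022 probe sets above the 40th percentile. Tissue fits kept the animal as a block, since same-animal deviations correlated in 21 of 21 pairs (0.159 to 0.476). Replicate arrays correlated at 0.958 to 0.981. Departures from the midparent were tested among parental calls, and positions outside both parents among the rest. The fits were tested on simulated data.

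Named genes were drawn, per comparison and by the probe set of smallest p, from called members without overlap between groups. Between parents these were the 4 largest differences in each direction, and between tissues the 6 largest in each direction. In the F1 comparisons they were the 4 largest absolute differences. Members called in all 3 tissues, and listed genes as examples, were added. Not every gene so ranked is described. Zfp354a, Zfp354c, and, between the reciprocal F1, Zfp326, Zfp451, Zfp462, Zfp474, Zfp597 and Zfp711 were chosen after their values were seen. The number of arrays limits the precision. No nucleotide or protein sequences of these genes were used here.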

Additional observations from a re-analysis of the deposited data

Results flagged for a closer look

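Named genes whose parental difference depended on tissue are given with limma's adjusted p for that dependence, then the log2 differences in brain, liver and testis. For domesticus minus musculus, Zfp354b (4e-06) had -0.45, -0.57 and 1.53, Zfp955a (6.33e-06) had 0.61, 1.93 and 2.03, and Zfp874a (0.000748) had -3.43, -2.75 and -1.44. Zfp949 on 1458491_at (0.00282) had -0.79, -2.65 and -0.43, and Zfp975 on 1460017_at (0.00403) had 0.10, -0.62 and 1.22. Zfp931 (0.0048) had -0.86, -1.90 and -0.22, and Zfp935 (0.00803) had -1.10, -0.93 and -2.87.

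For castaneus minus musculus, Zfp354b (8.19e-10) had -1.10, -0.79 and 2.39, Zfp622 on 1447775_x_at (4.15e-06) had 0.22, -1.59 and 0.64, and Zfp955a (4.34e-05) had 0.52, 1.71 and 1.72. Zfp931 (0.00151) had -2.57, -2.73 and -1.01, Zfp974 on 1440171_x_at (0.00369) had 1.03, 0.44 and -0.43, and Zfp386 (0.011) had 0.59, 1.11 and 1.62. Zfp607b (0.0174) had 1.68, 0.29 and 0.69, and Zfp511 on 1460572_a_at (0.0399) had 1.11, 0.73 and 2.17. Both pairs share the musculus arrays.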

How the results depend on the processing

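Counts of called zinc finger probe sets are given as main value, then alternatives that moved them by more than 1.5 times. Unsuffixed probe sets are those without the suffix _a_at, _s_at or _x_at. Departure from the midparent in brain was 3 for the domesticus cross. It became 1 with an offset of 100, 1 after quantile normalization and 0 with the linear midparent. For the castaneus cross in brain it was 2, 1 with unsuffixed probe sets and 0 with the linear midparent. In liver it was 2 for the domesticus cross, 0 with an offset of 100, 1 after quantile normalization and 1 with the replicate block. It was also 1 with unsuffixed probe sets and 0 with the linear midparent. For the castaneus cross in liver it was 2, and 1 with unsuffixed probe sets. In testis it was 2 for the domesticus cross, 1 with an offset of 100 and 0 with the linear midparent, and 7 for the castaneus cross, 2 without the musculus x castaneus F1 and 11 without the castaneus x musculus F1. Outside both parents in the testis castaneus cross, 1 was called, 0 without the filter on low signal, 2 after quantile normalization, and 0 and 28 without the respective F1. With unsuffixed probe sets alone the liver counts were 8 for castaneus and musculus and 6 for castaneus and domesticus. Dependence on tissue fell from 22 to 13 and from 27 to 12 when the animal was not kept as a block. Zfp874a reversed from 0.67 to -0.18 in brain and from 0.52 to -0.056 in liver with the linear midparent. Left-out F1 groups and left-out males in the dependence fits were chosen after seeing the data. The cause of these changes was not tested, except that fewer arrays or probe sets were used where some were left out. Shares over all probe sets are not given with these counts.

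Leaving out 1 array at a time, parental counts ranged from 8 to 14, 8 to 10 and 12 to 16 in brain, 9 to 11, 6 to 14 and 6 to 8 in liver, and 10 to 18, 24 to 27 and 17 to 20 in testis, in the order used in the report. Midparent counts ranged from 1 to 3 and 1 to 3 in brain, 0 to 4 and 1 to 4 in liver, and 0 to 3 and 3 to 8 in testis. Outside both parents ranged from 0 to 4 and the reciprocal count from 18 to 49 in the testis castaneus cross, the reciprocal count from 0 to 1 in the brain castaneus cross, and dependence on tissue from 11 to 17 and 13 to 24. The share called over all probe sets moved in the left-out fits as well, and for the midparent the number tested often did too. Same-numbered males of different genotypes had correlations of -0.473 to 0.527. These were above 0.1 in 13 of 21 pairs in brain, 9 in liver and 10 in testis. Whether males of 1 number shared an effect was not tested, and the main fits did not pair them. The replicate block changed the parental counts from 17, 17 and 26 to 23, 20 and 27 in brain. Of 136 named results, 95 were called under all alternatives run and 36 lost the call in a left-out array.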
